A study of Mus musculus with 18 samples.

Results

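The comparison of APP/PS1/FTnKO with WT frontal cortex asks what an amyloid-bearing cortex still has, or newly has, relative to a cortex without the transgenes once forebrain neurons have lost farnesyltransferase. It used 11 of the 18 mice of the series, the 6 APP/PS1/FTnKO mice and 5 of the 6 WT mice, all the genes of their count table, and an adjustment for sex. The 6 APP/PS1 mice are shown beside them and took part in the same fit. Bulk mRNA of the frontal cortex was sequenced at 9 to 10 months of age. APP/PS1/FTnKO mice (3 females and 3 males) carry the APP/PS1 transgenes, homozygous floxed alleles of the FT β-subunit gene Fntb and a CaMKIIα-driven Cre recombinase, which recombines in forebrain excitatory neurons after birth, so that Fntb is intact in glia, vessels and most interneurons. APP/PS1 mice (3 females and 3 males) carry the transgenes and the floxed alleles without Cre. WT mice (2 females and 3 males) have neither transgene nor Cre. The study's methods describe them as littermates with the floxed alleles, while its deposited design text calls them C57BL/6J, so their background was not settled here, and a group with Cre but without the transgenes was not analysed here.

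Farnesyltransferase attaches a farnesyl lipid to proteins such as the Ras GTPases, lamins and some chaperones, which anchors them to membranes. Amyloid plaques in this mouse model are surrounded by microglia that switch on phagocytic and lysosomal genes through the receptor Trem2 and its adaptor Tyrobp, and by astrocytes rich in Gfap. Neurons near plaques are known for altered activity, which immediate early genes such as Arc and the Egr factors report.

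WT mouse 19622 was set apart, since the 6 tested cerebellar marker genes summed to 2135 CPM (read counts scaled to library size) against 41.0 to 69.8 CPM in the other WT mice, and 12 excitatory neuron markers to 605 against 5499 to 7311 CPM. Its mean distance to the other mice over the 500 most different genes of each pair was 4.29 on the log2 scale, where all others lay between 2.13 and 2.47. The excitatory neuron markers summed to 5499 to 7311 CPM (median 5800) in the 5 WT mice used. In the 6 APP/PS1/FTnKO mice they summed to 4144 to 5914 CPM, with a lower median of 4589. Striatal markers summed to 867.9 to 1645 CPM in WT, lowest in mouse 19718. In APP/PS1/FTnKO mice that sum was 766 to 1748 CPM, lowest in mouse 19720. Whether dissection differed was not tested. The cerebellar, striatal and thalamic markers had no called member with edgeR, DESeq2 or limma-voom. At an unadjusted p under 0.05 there was 1 thalamic gene and 0 of the others. Depth was 16452173 to 20602274 counts in the WT mice and 16479413 to 21030935 in the APP/PS1/FTnKO mice, and the RNA integrity number (RIN) was 8.5 to 8.8 and 7.6 to 8.7. APP/PS1/FTnKO mouse 16974 had the RIN of 7.6.

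Fntb, the targeted gene, was at 16.8, 32.2, 30.8, 14.1 and 16.9 CPM in the 5 WT mice and at 7.84 to 14.7 CPM (median 12.6) in the APP/PS1/FTnKO mice. Its level was lower in APP/PS1/FTnKO mice by 10.4 CPM in the mean (11.8 ± 2.76 against 22.2 ± 8.60, SD; exact two-sided permutation test, p = 0.00433, smallest possible 0.00216), although the groups overlapped by a single WT mouse and the model across all genes did not call it (log2 fold change -0.93, SE 0.27, edgeR adjusted p = 0.0658). DESeq2 on the same 17 mice called it (adjusted p = 0.0413), as did edgeR on the 11 mice alone (0.0482) and without a filter on low counts (0.0036), while limma-voom did not (0.0797); over all alternatives the adjusted p ran from 0.00313 to 0.624. The permutation test of Fntb had no sex term. Its mean difference was -7.857 CPM without WT mouse 19718 and -8.256 CPM without WT mouse 19721. Both are males and had the highest WT values. Cells outside the Cre line's reach contribute to a bulk level. App, into which transgene reads can be counted, lay at 1492 to 1613 CPM in WT and at 2117 to 3640 CPM in APP/PS1/FTnKO mice, without overlap (exact p = 0.00433). Camk2a, whose promoter drives Cre, was at 3145 to 4371 CPM in WT and 2297 to 3656 CPM in APP/PS1/FTnKO mice (exact p = 0.0238, model adjusted p = 0.0983). Thy1, a pan-neuronal surface protein, did not differ beyond its spread (exact p = 0.0974).

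Of 17414 genes tested, 674 were called between APP/PS1/FTnKO and WT mice at an adjusted p under 0.05, which is 3.87% of those tested. They divide into 386 higher genes (2.22%) and 288 lower genes (1.65%). The higher genes were the larger changes. Their median log2 fold change was 0.49 and 102 of them exceeded 1, against a median of -0.32 and 9 genes below -1 among the lower genes. The lower genes were the more abundant in WT cortex, with a median of 91.6 CPM against 15.9 CPM for the higher genes. All 6 APP/PS1/FTnKO mice lay above all 5 WT mice in 273 of the higher genes, and below them in 195 of the lower genes. Among all tested genes, called or not, 479 (2.75%) lay above and 497 (2.85%) below in this way. The median log2 fold change of all tested genes was 0.01, and the called share per chromosome ran from 2.27% on chromosome 12 to 5.68% on chromosome 15.

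**Figure D1:**
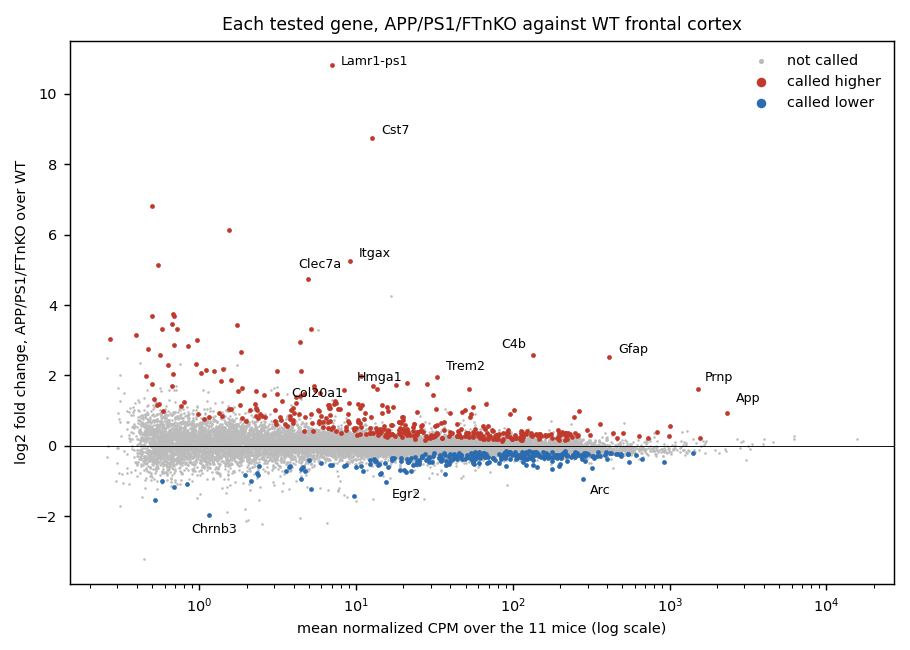
Each point is a tested gene, with its mean normalized CPM over the 11 mice on a log axis and its log2 fold change of APP/PS1/FTnKO over WT on the vertical axis; 386 genes called higher are red, 288 called lower are blue and the rest are grey. Called genes with a change above 2 in size on the log2 scale are all higher, while no called lower gene falls below -2; the median WT level is 15.9 CPM for the higher and 91.6 CPM for the lower genes.

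The count rests on few mice. It was 206 without WT mouse 19053, 232 without WT mouse 18944, 250 without APP/PS1/FTnKO mouse 16974, 261 without WT mouse 19718, 304 without WT mouse 19721, 316 without APP/PS1/FTnKO mouse 18943, 367 without 19394 and 435 without 19720. A set of 157 genes, 110 higher and 47 lower, kept an adjusted p under 0.05 with each of the 17 mice left out in turn, and the 10 higher and 10 lower genes of smallest p belong to it.

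The higher genes with the smallest p were mostly transcripts at or beside the transgene sequences and genes of plaque-associated microglia. Prnp, the prion protein gene, whose promoter drives both transgenes, was at 684, 768, 694, 706 and 658 CPM in the 5 WT mice and at 1841 to 2632 CPM (median 2183) in APP/PS1/FTnKO mice. The groups lay far apart, with a log2 fold change of 1.62 (SE 0.08, edgeR adjusted p = 1.78e-09), beside 1.58 for APP/PS1 over WT. Lamr1-ps1, a processed pseudogene just upstream of Prnp (GRCm38 chr2:131904086-131904959, Prnp chr2:131909928-131938429), had 0 counts in all 5 WT mice and 178 to 395 counts in the APP/PS1/FTnKO mice. Set against a floor of 3 counts per WT library, it was at least 77-fold higher (adjusted p = 6.70e-09). App rose by 0.93 (SE 0.10, adjusted p = 5.41e-05), beside 0.89 in APP/PS1. Of the 106 tested genes within 5 Mb of Prnp, Lamr1-ps1 and Kcnip3 were called (1.89%, beside 3.87% of all tested genes). Kcnip3 was lower (-0.28, and 0.00 for APP/PS1 over WT). Of the 22 genes around App none was called.

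Cst7, which encodes cystatin F, an inhibitor of lysosomal proteases in activated microglia, was at 0, 0.05, 0, 0.18 and 0 CPM in WT mice 19101, 19718, 19721, 18944 and 19053. It was at 5.93 to 28.9 CPM (median 28.0) in APP/PS1/FTnKO mice. The WT mice held 4 Cst7 reads in all, and the ratio of the groups was 528 with a 95% exact interval of 206 to 1940 that covers counting error only (adjusted p = 4.23e-06). Itgax, the integrin CD11c, was at 0.122, 0.350, 0.620, 0.592 and 0.222 CPM in the WT mice and at 2.97 to 23.8 CPM (median 18.3) in APP/PS1/FTnKO mice, a log2 fold change of 5.25 (SE 0.48, adjusted p = 1.24e-05). Clec7a, the β-glucan receptor dectin-1, was at 0.122 to 0.555 CPM in WT and 2.45 to 13.3 CPM (median 9.92) in APP/PS1/FTnKO mice (4.74, SE 0.50, adjusted p = 5.91e-05). None of these groups overlapped, and in each gene APP/PS1/FTnKO mouse 18973 was the lowest of its genotype. Trem2 was at 10.0 to 13.9 CPM in WT and 20.0 to 66.8 CPM (median 53.1) in APP/PS1/FTnKO mice (1.96, SE 0.26, adjusted p = 0.000846). Asb10, a substrate adaptor of the ankyrin repeat and SOCS box family, was at 0.103 to 0.250 CPM in WT and 0.684 to 2.39 CPM in APP/PS1/FTnKO mice (3.00, SE 0.40, adjusted p = 0.000846). The values for APP/PS1 over WT were 9.24 for Cst7, 5.47 for Itgax, 5.06 for Clec7a, 2.37 for Trem2 and 3.65 for Asb10.

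**Figure D2:**
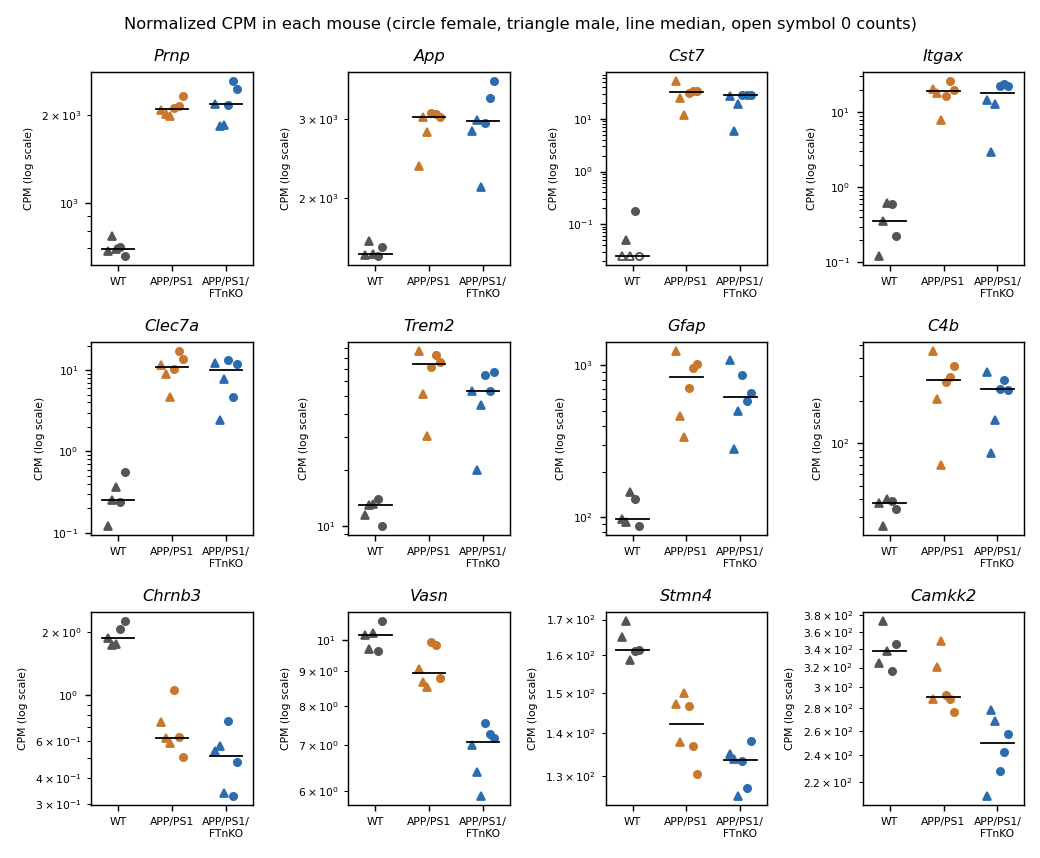
Normalized CPM of 12 genes in each mouse on log axes, by genotype, with circles for females, triangles for males, a line at the median and open symbols for 0 counts. In the 8 genes of the upper 2 rows every APP/PS1/FTnKO mouse lies above every WT mouse, and in the 4 genes of the bottom row every APP/PS1/FTnKO mouse lies below them.

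Of the 32 genes that were named by rule for their small p or for a call against both groups, 20 had an upstream sequence in the RefSeq table (GRCm38.p6). The hexamer GGAAGT, in the core recognized by PU.1 and other ETS factors, or its complement ACTTCC stood in 4 of the 20, Cst7, Itgax, Asb10 and Cfap46, and in neither of the microglial genes Clec7a and Trem2. Of the 4, 2 microglial genes and Cfap46, which was not raised in APP/PS1 mice, are shown as examples. Each run is the 250 bases before the start, 5′ to 3′ on the gene's strand, with the hexamer or its complement in capitals. The windows are Cst7 (chr2:150570165-150570414, plus strand), Itgax (chr7:128129300-128129549, plus strand) and Cfap46 (chr7:139683816-139684065, minus strand).
Cst7: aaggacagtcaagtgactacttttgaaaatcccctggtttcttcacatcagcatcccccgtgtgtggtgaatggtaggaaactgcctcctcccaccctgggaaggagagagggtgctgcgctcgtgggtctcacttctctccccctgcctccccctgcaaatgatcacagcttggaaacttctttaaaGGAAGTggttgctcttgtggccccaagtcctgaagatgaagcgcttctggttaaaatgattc
Itgax: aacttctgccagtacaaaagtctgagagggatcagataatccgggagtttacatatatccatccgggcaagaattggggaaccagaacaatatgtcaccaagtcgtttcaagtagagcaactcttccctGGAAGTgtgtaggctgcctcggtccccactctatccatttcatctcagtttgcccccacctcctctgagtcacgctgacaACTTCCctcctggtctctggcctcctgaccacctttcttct
Cfap46: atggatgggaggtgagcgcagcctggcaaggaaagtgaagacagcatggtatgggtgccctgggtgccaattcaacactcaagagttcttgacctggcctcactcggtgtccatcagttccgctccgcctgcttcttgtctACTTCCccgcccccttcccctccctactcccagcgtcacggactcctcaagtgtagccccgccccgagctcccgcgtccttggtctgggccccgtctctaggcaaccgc
The hexamer stood in 20.0% of all 27025 RefSeq promoters on either strand, in 22.0% of those of tested genes, in 79 of the 282 higher genes with a promoter in the table (28.0%) and in 28 of the 215 lower genes (13%). The palindrome CACGTG, the E-box of TFEB and other basic helix-loop-helix factors, stood in 6.05% of all promoters, 8.1% of those of tested genes, 6.03% of the higher and 11.6% of the lower genes. The shares are descriptions of letters in a window and were not tested.

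Counts of list members are those of edgeR on the 17 mice unless another fit is named. Each count stands beside 2.22% called higher and 1.65% called lower among all tested genes. Among gene lists, plaque-associated microglia had the largest called share: 24 of 33 tested members were called higher and none lower, beside a background of 2.22% called higher, and the list's median log2 fold change was 1.73 (2.04 for APP/PS1 over WT). All 33 members had a positive sign. The called members included the phagocyte and lipid genes Cd68, Gpnmb, Lpl, Lgals3, Cd9 and Cd63, the lysozyme gene Lyz2, the receptors Tlr2 and Lilrb4a and the chemokines Ccl3, Ccl4 and Ccl6. Cd68, a lysosomal glycoprotein of phagocytes, was at 7.75 to 9.70 CPM in WT and 14.8 to 40.8 CPM in APP/PS1/FTnKO mice (1.79, SE 0.25, adjusted p = 0.00107). Ccl3 and Ccl4 had 3 and 2 reads in the 5 WT mice together, and the ratios of the groups were 83.2 (95% exact interval 28.2 to 406) and 43 (11.6 to 360). Atp6v0d2, a subunit of the vacuolar proton pump, had no read in any WT mouse and was at least 5.54-fold higher at the floor. Apoe (0.40, adjusted p = 0.136), Axl (0.25, 0.263), Igf1 (0.53, 0.0677) and Ank (0.03, 0.693) were among the 9 members not called. In no member was APP/PS1/FTnKO called against APP/PS1 mice, and the list's median for that comparison was -0.29.

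The lowest values of this list gathered in 1 APP/PS1/FTnKO mouse, while the highest were spread. They fell 13 times in mouse 16974, 7 each in 18943 and 19722, 5 in 19394 and 1 in 18973. APP/PS1/FTnKO mouse 18973, a male, was the lowest of its genotype in 28 of the 33 plaque-associated microglial genes, and its sum over the list was 3166 CPM, against 3854 to 4944 CPM in the other 5 and 2812 to 3121 CPM in WT mice. The sum is weighted by abundant members that were not called, such as Apoe and Fth1 (WT medians 1057 and 1065 CPM). Mouse 18973 was also the lowest in 14 of 15 Fc receptor and Trem2-Tyrobp genes and in 24 of 30 lysosomal genes. Without it the list's called members rose from 24 to 28 and the median to 1.91. Fewer cells of a type and less RNA per cell cannot be told apart in bulk tissue.

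Of homeostatic microglial genes, 2 of 15 were called, both higher, beside 2.22% of all tested genes. The list median was 0.17 (0.34 for APP/PS1 over WT). Fcrls, an Fc receptor-like scavenger receptor of resident microglia, was at 15.1 to 22.8 CPM in WT and 24.6 to 56.4 CPM in APP/PS1/FTnKO mice (1.06, SE 0.18, adjusted p = 0.00517). Olfml3 was the other (0.61, adjusted p = 0.0445), and the list had 6 called members when mouse 18973 was left out and 1 when any of mice 16974, 19720, 18943, 19394, APP/PS1 19554 or WT 19101, 19721, 18944 or 19053 was. It had 4 without APP/PS1 mouse 19744 and with DESeq2 on the 17 mice. P2ry12 (0.02), Tmem119 (-0.14) and Aif1 (0.01), markers of resting microglia, were close to WT, and Cx3cr1 (0.47, adjusted p = 0.0509) was not called. Of 11 genes of infiltrating leukocytes, only Cd4 passed the filter on low counts, and the highest count of the other 10 in a mouse ran from 3 for Cd3e and Cd8b1 to 14 for S100a8, 15 for Cd79a and 33 for S100a9.

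Receptors and signalling proteins of the Trem2 and Fc pathways were higher in 9 of 15 tested members (median 0.89, against 1.20 for APP/PS1 over WT), with Trem2 and Tyrobp shared with the plaque list. Tyrobp, the adaptor that carries the activating motif for this receptor, was at 10.9 to 14.3 CPM in WT and 17.8 to 50.3 CPM in APP/PS1/FTnKO mice (1.76, SE 0.25, adjusted p = 0.00145). Fcer1g (1.17, adjusted p = 0.00667), the common Fc receptor γ-chain, and Fcgr3 (0.99, 0.0104), a low-affinity activating receptor for IgG, followed. The kinase Syk (-0.07, adjusted p = 0.834) and the lipase Plcg2 (0.46, 0.139) were not called. The count was 4 without APP/PS1/FTnKO mouse 16974 or WT mouse 19053, and 5 without APP/PS1/FTnKO mouse 18943 or WT mice 19718 or 19721.

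In the complement list 4 of 15 members were called higher and none lower. C4b, of the classical pathway and made by astrocytes as well, was at 25.9 to 40.4 CPM in WT and 85 to 319 CPM (median 241) in APP/PS1/FTnKO mice, without overlap (2.57, SE 0.38, adjusted p = 0.00161). C3ar1, the receptor of the C3a fragment, rose by 2.13 (SE 0.29, adjusted p = 0.000910). The initiating subunits C1qa (1.18, adjusted p = 0.00445) and C1qc (1.02, 0.0339) were called and C1qb (0.89, 0.0733) was not. Among antigen presentation genes, the class II invariant chain Cd74 (1.71, adjusted p = 0.00348) and H2-Ab1 (1.45, 0.0217) were called of 12, whereas the class I genes H2-D1 (1.03, 0.103) and B2m (0.50, 0.106) were not. DESeq2 called 4 of the 12 on the same mice. The edgeR count was 1 when any of APP/PS1/FTnKO mouse 16974 or WT mice 19721, 18944 and 19053 was left out. None of 14 interferon response genes was called by edgeR, DESeq2 or limma-voom (2 at an unadjusted p under 0.05), and all 14 had a positive sign (median 0.28).

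Lysosomal genes were higher in 15 of 30 members, with none lower and a median of 0.32 (0.47 for APP/PS1 over WT). Ctsd, an aspartic protease of the lysosome, was at 156 to 181 CPM in WT and 200 to 431 CPM (median 356) in APP/PS1/FTnKO mice (1.0, SE 0.16, adjusted p = 0.00279). Hexa, a subunit of β-hexosaminidase, was at 48.8 to 55.4 CPM and 61.5 to 81.3 CPM (0.56, SE 0.08, adjusted p = 0.00161). The cathepsins Ctsz (1.09) and Ctss (1.01), the mannosidase Man2b1 (0.90), the glucuronidase Gusb (0.81) and progranulin Grn (0.56) were also called, with Cd68, Cd63, Ctsz and Laptm5 shared with lists above. Prosaposin Psap (-0.02), the membrane protein Lamp1 (0.09) and the lipase Lipa (-0.01), by contrast, were not called. The count was 9 without APP/PS1/FTnKO mice 16974 or 18943 or WT mice 18944 or 19053.

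Among reactive astrocyte genes 6 of 13 were called higher and none lower (median 0.91, and 0.93 for APP/PS1 over WT), while edgeR called 0 and DESeq2 1 of 14 homeostatic astrocyte genes (4 at an unadjusted p under 0.05, median 0.15). Gfap, the intermediate filament of reactive astrocytes, was at 88.1 to 147 CPM in WT and 281 to 1082 CPM (median 617) in APP/PS1/FTnKO mice, with no overlap (2.53, SE 0.35, adjusted p = 0.000980). The protease inhibitor Serpina3n rose by 1.46 (SE 0.26, adjusted p = 0.00632), and Ggta1, Osmr and Cd44 were the others beside C4b. Vim (0.72, adjusted p = 0.0566) and Stat3 (0.25, 0.0501) missed the threshold, and Lcn2 was at -0.33 (adjusted p = 0.870). The count was 3 without APP/PS1/FTnKO mouse 16974 or WT mice 19718 or 19053. Mature oligodendrocyte, oligodendrocyte precursor and vessel genes had no called member with edgeR, DESeq2 or limma-voom (0, 1 and 0 at an unadjusted p under 0.05).

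**Figure D3:**
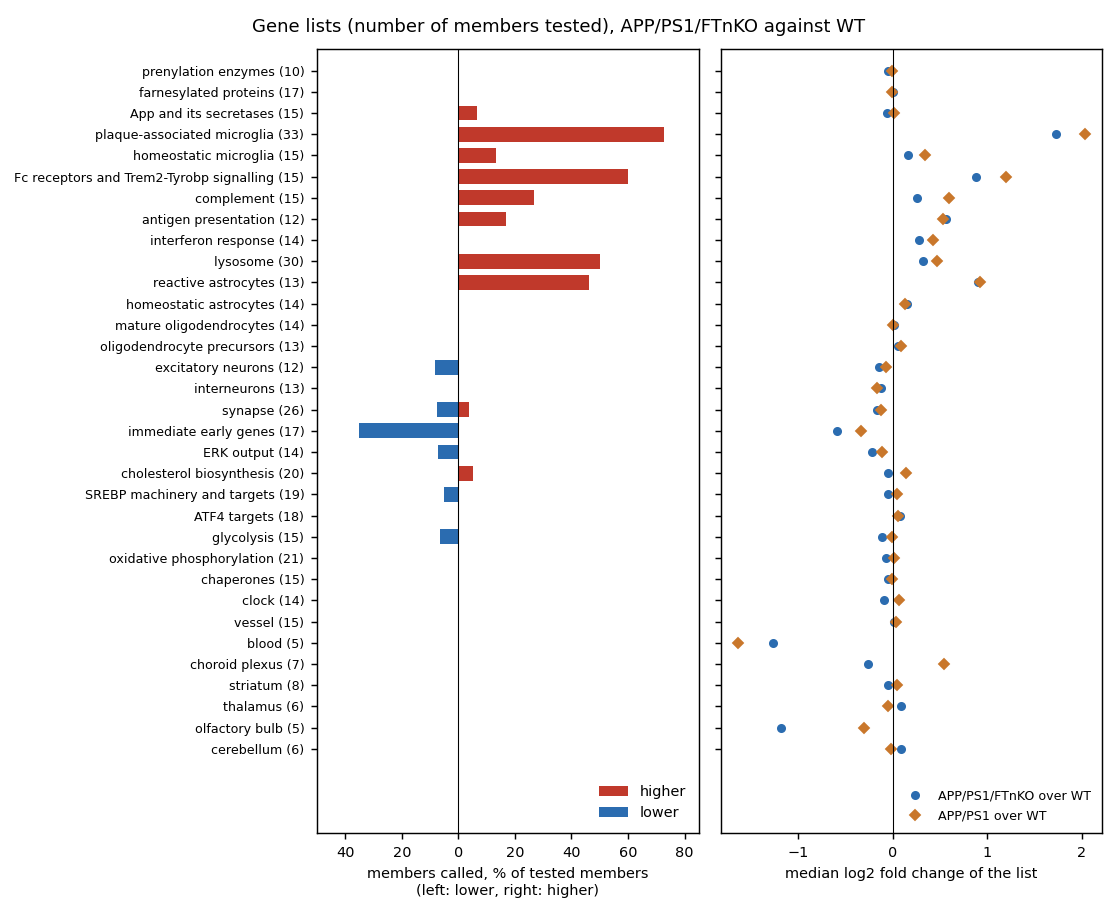
Left, the share of each list's tested members called higher (right of 0) or lower (left of 0) in APP/PS1/FTnKO against WT mice, with the number tested in parentheses; right, each list's median log2 fold change for APP/PS1/FTnKO over WT (circles) and APP/PS1 over WT (diamonds). Plaque-associated microglia reach 72.7% called higher, immediate early genes 35.3% called lower, and most neuronal and metabolic lists have a median near 0.

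The 10 lower genes with the smallest p had log2 fold changes from -1.98 to -0.30. Chrnb3, a β-subunit of neuronal nicotinic acetylcholine receptors, was at 1.89, 1.75, 1.76, 2.07 and 2.28 CPM in the 5 WT mice and 0.328 to 0.748 CPM (median 0.508) in APP/PS1/FTnKO mice (-1.98, SE 0.23, adjusted p = 0.000184). The groups did not overlap, and the value for APP/PS1 over WT was -1.51 (adjusted p = 0.000878). Stmn4, a neuronal microtubule regulator of the stathmin family, was at 159 to 170 CPM in WT and 126 to 138 CPM in APP/PS1/FTnKO mice (-0.30, SE 0.04, adjusted p = 0.00135). Camkk2, the kinase upstream of CaMKI, CaMKIV and AMPK, was at 317 to 373 CPM and 210 to 278 CPM (-0.45, SE 0.07, adjusted p = 0.00279). The phosphatase Dusp8 (-0.32), the TGF-β pathway inhibitor Pmepa1 (-0.49), the TGF-β-binding protein Vasn (-0.57), the T-type calcium channel Cacna1i (-0.38), the neuronal pentraxin Nptx2 (-0.54) and the unclassified transcript Gm43843 (-0.71) were also among the 10, all without overlap between the groups.

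Immediate early genes were the list with most lower calls: 6 of 17 were called lower, none higher, beside a background of 1.65% called lower, and all 17 had a negative sign (median -0.59). Arc, which regulates AMPA receptor trafficking, was at 312, 411, 405, 373 and 394 CPM in the 5 WT mice and 99.4 to 324 CPM (median 197) in APP/PS1/FTnKO mice (-0.95, SE 0.21, adjusted p = 0.0215). The groups overlapped in mouse 18973, at 324 CPM, and WT mouse 19101, at 312 CPM. Egr3 was at 157 to 199 CPM and 91.7 to 155 CPM (-0.59, SE 0.11, adjusted p = 0.00958), and Egr2 at 17.8 to 25.1 CPM and 5.48 to 16 CPM (-1.02, SE 0.22, 0.0169), both without overlap. Egr1 (-0.64, adjusted p = 0.0208), Egr4 (-0.69, 0.0246) and Jun (-0.46, 0.0329) were the others. Fos (-0.37, adjusted p = 0.261), Npas4 (-0.48, 0.168) and Nr4a1 (-0.53, 0.0928) were not called. The median for APP/PS1 over WT was -0.33, and that for APP/PS1/FTnKO over APP/PS1 -0.26 with no member called. Mouse 18973, lowest in the microglial lists, was the highest APP/PS1/FTnKO mouse in 12 of the 17 genes and mouse 19394 the lowest in 10.

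The count of lower immediate early genes was 1 without WT mouse 18944, 2 without WT mice 19053 or 19718 and 3 without WT mouse 19721 or APP/PS1/FTnKO mouse 16974, while the list median stayed between -0.68 and -0.45 in every alternative. The count was also 1 with all 18 mice (2 with DESeq2), 0 in males alone, 8 with DESeq2 on the 17 mice and 12 without a filter on low counts. Olfactory bulb markers had 0 of 5 called (2 at an unadjusted p under 0.05; 1 called lower by DESeq2 with all 18 mice, 3 by edgeR in females alone) and a median of -1.18, with overlapping sums of 37.2 to 108 CPM in WT and 11.8 to 75.8 CPM in APP/PS1/FTnKO mice. Blood genes also had 0 of 5 called, by DESeq2 and limma-voom too and with 0 at an unadjusted p under 0.05, with sums of 49.2 to 1028 CPM in WT and 36.0 to 447 CPM in APP/PS1/FTnKO mice; their median was -1.26, and 0.23 without WT mouse 19101, which had the 1028 CPM. The part of olfactory bulb and blood genes in the result was not tested. Nor was that of the lower median excitatory neuron sum in APP/PS1/FTnKO mice.

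**Figure D4:**
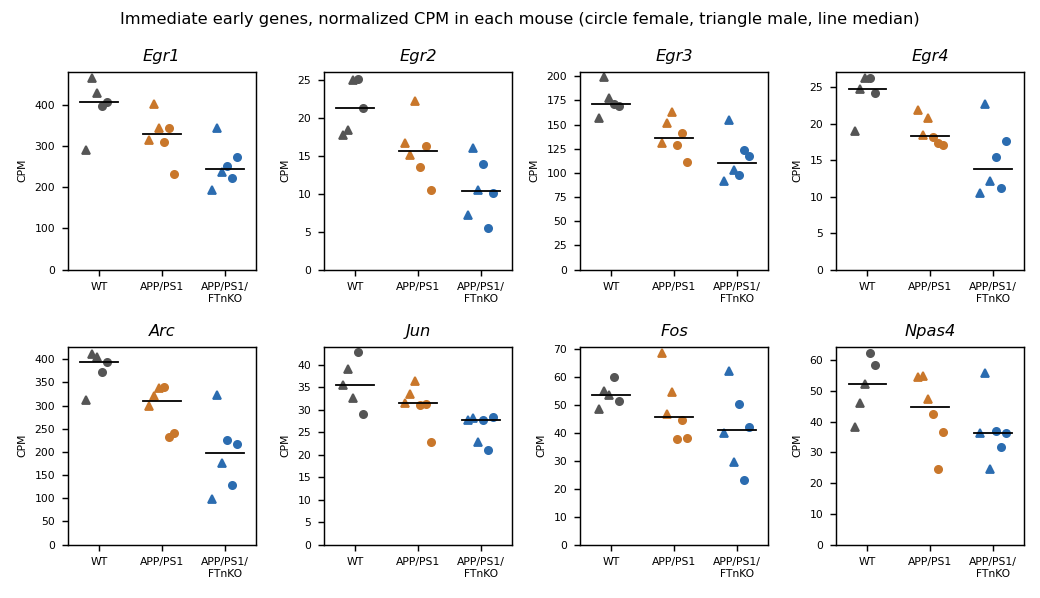
Normalized CPM of 8 immediate early genes in each mouse on linear axes from 0, by genotype, with circles for females, triangles for males and a line at the median. In Egr2, Egr3 and Jun every APP/PS1/FTnKO mouse lies below every WT mouse. The groups overlap in the called genes Egr1, Egr4 and Arc and in Fos and Npas4.

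The lists that follow stand beside backgrounds of 1.65% called lower and 2.22% called higher, and a single call in lists of this size is not a result about the list. Excitatory neuron genes had 1 of 12 members called, the vesicular glutamate transporter Slc17a7 (-0.46, SE 0.12, adjusted p = 0.0396), at 956 to 1389 CPM in WT and 633 to 965 CPM in APP/PS1/FTnKO mice; all 12 had a negative sign (median -0.14). The count was 0 without APP/PS1/FTnKO mice 16974, 18973, 18943 or 19394 or WT mice 19718, 19721, 18944 or 19053, and 2 without APP/PS1/FTnKO mouse 19720. Of 13 interneuron genes edgeR called 0 and DESeq2 1 (2 at an unadjusted p under 0.05), with Cck closest in edgeR (-0.47, adjusted p = 0.0509); a count of 1 was also reached by edgeR without APP/PS1/FTnKO mouse 19720, APP/PS1 mice 16975, 19744 or 19554 or WT mouse 19101. Of 26 synaptic genes 1 was called higher and 2 lower, and 25 had a negative sign (median -0.17); DESeq2 called 6 lower on the same 17 mice. The active-zone protein Rims1 was higher, at 218 to 268 CPM in WT and 305 to 401 CPM in APP/PS1/FTnKO mice (0.45, SE 0.08, adjusted p = 0.00618), whereas the active-zone scaffold Bsn (-0.46, 0.0375) and the postsynaptic scaffold Homer1 (-0.65, 0.0397), whose short form is itself activity-induced, were lower. Both lower calls were lost when any of APP/PS1/FTnKO mice 16974, 19720, 18943 or 19394 or WT mice 19718, 19721, 18944 or 19053 was left out, and the count was 4 without APP/PS1 mouse 16975 and 5 without APP/PS1 mouse 19744. Among the 14 targets and feedback genes of ERK, which Ras activates, only the factor Etv1 was called (-0.25, adjusted p = 0.0499), with the list at a median of -0.22; Dusp6 (-0.33, 0.101) and Spry4 (-0.24, 0.202) were not. DESeq2 called 3 members lower on the same 17 mice and 5 on the 11 mice alone. The list had no called member with limma-voom, with RLE size factors, with RIN as a covariate, with all 18 mice, in males alone and without any of APP/PS1/FTnKO mice 16974, 19720, 18943 or 19394, APP/PS1 mice 19553 or 19554 or WT mice 19718, 19721, 18944 or 19053, and 2 members were called without APP/PS1/FTnKO mice 18973 or 19722 or APP/PS1 mouse 16975.

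On the 17 mice edgeR called none of the 10 prenylation enzymes (4 at an unadjusted p under 0.05) and DESeq2 called 1, Fntb. Neither Fnta, the α-subunit shared by farnesyltransferase and the geranylgeranyl-transferring enzyme (0.12, adjusted p = 0.166), nor Pggt1b, the β-subunit of the latter (-0.02, 0.940), passed. Of 17 genes of farnesylated proteins edgeR called 0 (6 at an unadjusted p under 0.05, median 0.00), DESeq2 called 1 lower on the same mice and 2 on all 18, and edgeR called 1 without APP/PS1/FTnKO mouse 18973, APP/PS1 mice 16975 or 19744 or a filter on low counts.

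Cholesterol biosynthesis, the pathway whose intermediate farnesyl pyrophosphate is the substrate of the enzyme, had few called members. Of 20 enzymes, 1 was called higher: Tm7sf2, a sterol C14-reductase, at 20.5 to 22.5 CPM in WT and 25.6 to 33.3 CPM in APP/PS1/FTnKO mice (0.44, SE 0.07, adjusted p = 0.00279). DESeq2 called 2 higher and 1 lower. The list median was -0.05, beside 0.14 for APP/PS1 over WT. Glycolysis had 1 of 15 members called, the hexokinase Hk1 (-0.19, adjusted p = 0.0414), a count that was 3 with DESeq2, 2 without APP/PS1/FTnKO mouse 18973 and 0 without any of APP/PS1/FTnKO mice 16974, 19720 or 18943, APP/PS1 mouse 19553 or WT mice 19718, 19721, 18944 or 19053. Of 21 oxidative phosphorylation genes edgeR called 0 (6 at an unadjusted p under 0.05), DESeq2 3 lower and edgeR with RLE size factors 1 lower, and 20 had a negative sign (median -0.07, and 0.02 for APP/PS1 over WT). For targets of ATF4, chaperones and clock genes edgeR called 0 (3, 3 and 2 at an unadjusted p under 0.05). DESeq2 called 1, 0 and 2 lower on the same mice. On the 11 mice alone 1 chaperone was called lower by edgeR and 3 by DESeq2. With 1 mouse left out, edgeR called up to 1 ATF4 target, 2 clock genes and 0 chaperones lower. In the same way up to 1 oxidative phosphorylation gene and 1 cholesterol enzyme were called lower.

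To find what was new rather than shared with the plaque-bearing cortex, genes were required to be called against WT and also against APP/PS1 mice. There were 37 such genes (0.212% of those tested), 21 higher and 16 lower, where 57 genes in all (0.327%) were called against APP/PS1 and 261 (1.5%) between APP/PS1 and WT. Both comparisons share the 6 APP/PS1/FTnKO mice and are not independent. None of the 37 was called between APP/PS1 and WT. Requiring both calls favours genes in which those 2 groups are alike, so this absence is no separate result. Cfap46, a protein of the central apparatus of motile cilia, was at 20.7, 16.1, 15.8, 19.1 and 18.1 CPM in WT and 24.5 to 34.5 CPM (median 27.2) in APP/PS1/FTnKO mice, above all WT mice (0.61, SE 0.08, adjusted p = 0.000846), and differed from APP/PS1 by 0.78 (adjusted p = 0.000111). Col20a1, a fibril-associated collagen, was at 7.01, 5.30, 6.56, 7.10 and 6.67 CPM in WT, 5.72 to 9.13 CPM in APP/PS1 and 10.9 to 17.5 CPM (median 13.9) in APP/PS1/FTnKO mice, more than any mouse of the other genotypes (1.08, SE 0.13, adjusted p = 0.000495). Hmga1, a chromatin-binding protein, was at 9.63 to 12 CPM in WT and 20.0 to 29.5 CPM in APP/PS1/FTnKO mice (1.11, SE 0.16, adjusted p = 0.00161), and 8.82 to 19.7 CPM in APP/PS1 mice.

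The channel Panx2 (0.33, adjusted p = 0.00157), the heat shock factor Hsf4 (0.63, 0.00133), the kinesin heavy chain Kif5b (0.63, 0.00414), the cardiac troponin gene Tnnt2 (0.90, 0.00279), the ubiquitin ligase adaptor Kctd13 (0.36, 0.00358) and the elongation factor subunit Eef1g (0.37, 0.000846) were higher in every APP/PS1/FTnKO mouse than in any WT mouse. For APP/PS1 over WT the same genes were at 0.00, 0.11, -0.05, 0.13, 0.03 and 0.13. On the lower side stood Vasn, the antisense transcript A930015D03Rik (-1.23, adjusted p = 0.00358), Ttc9b (-0.40, 0.00611), the mTORC1-related Rag GTPase Rragd (-0.34, 0.00826), Snn (-0.25, 0.00414) and Wsb2 (-0.26, 0.00729). Their values for APP/PS1 over WT lay between -0.16 and 0.09. Other lower genes of the 37 were the p35-related CDK5 activator Cdk5r2 (-0.27), the LC3 gene Map1lc3a (-0.20) and cyclin D2, Ccnd2 (-0.49), each singled out after its values were seen. Lamr1-ps1, Hmga1 and Eef1g have near-identical copies elsewhere in the genome, and A930015D03Rik and Gm4793 are antisense to other genes; the multi-mapping and strand settings of the counting were not given in the sources used here, so these values are uncertain.

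The count of 37 was 16 without APP/PS1/FTnKO mouse 16974, 12 without 18943, 10 without 19394 and 21 without 19722. It was 18 without WT mice 18944 or 19721, 16 without WT mouse 19053, 20 without WT mouse 19101 and 24 without WT mouse 19718. It was 57, 24, 18, 11 and 8 without APP/PS1 mice 16975, 19619, 19744, 19553 and 19554.

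**Figure D5:**
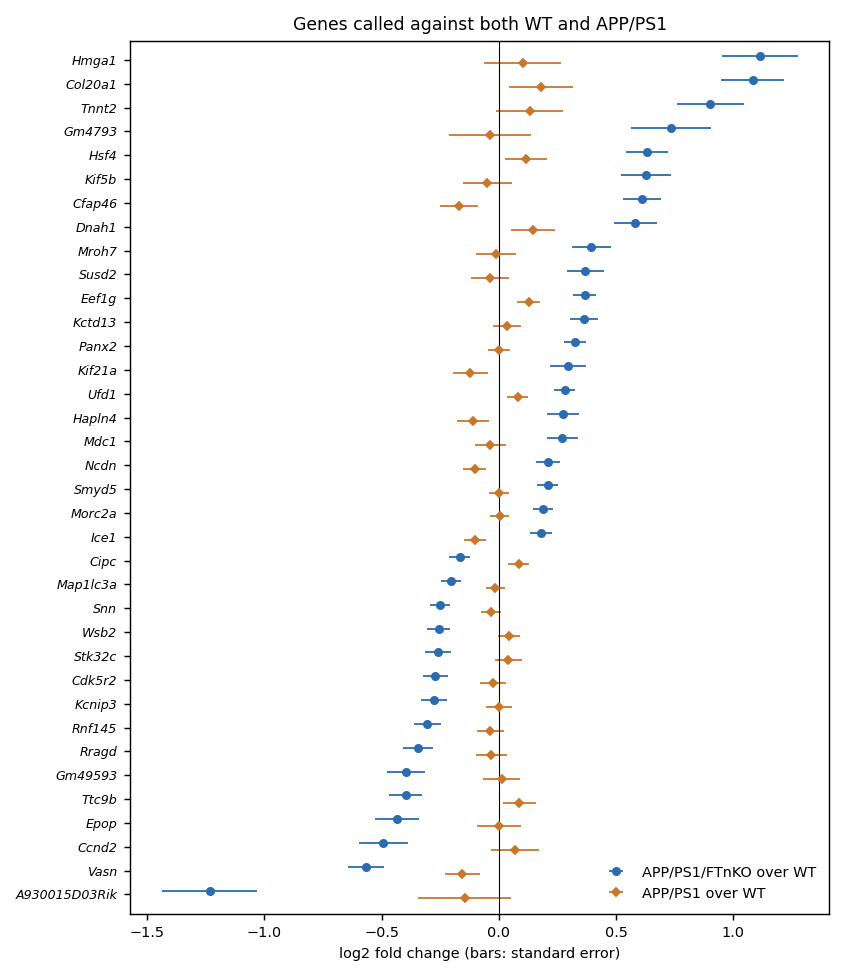
Log2 fold changes of the genes called in APP/PS1/FTnKO mice against both WT and APP/PS1 mice, for APP/PS1/FTnKO over WT (circles) and APP/PS1 over WT (diamonds), with standard errors as bars. Of the 37 genes, 1 is not drawn. The APP/PS1 values drawn lie between -0.17 (Cfap46) and 0.18 (Col20a1). Requiring both calls favours genes in which APP/PS1 and WT mice are alike.

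No gene's change differed between the sexes at an adjusted p under 0.05 (edgeR interaction of sex and genotype, 312 genes at an unadjusted p under 0.05; DESeq2 0 and 250, limma-voom 0 and 330). Fitted alone, females gave 236 called genes and males 3, and 22 of 33 and 0 of 32 tested plaque-associated microglial genes, with list medians of 1.91 and 1.51. Each sex had 2 or 3 mice per genotype here.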

How the data were processed

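RNA was extracted from frontal cortex, and stranded poly(A) libraries were sequenced as 150-bp paired ends. The submitters' processing notes name Trimmomatic 0.33, FastQC 0.11.7, HISAT2 2.1.0 and featureCounts with the mouse build mm10 (mm9 is also listed); the sources used here do not give the strand or multi-mapping settings. The authors deposited 1 table of raw read counts per gene, without normalization. From it, genes passing edgeR's filterByExpr (minimum count 10) were kept, 17414 of 55487, and fitted with edgeR 4.0.16 in R 4.3.3 (TMM normalization, quasi-likelihood test) over 17 mice with genotype and sex as terms, WT mouse 19622 left out. Genes were called at a Benjamini-Hochberg adjusted p under 0.05. CPM are TMM-normalized counts scaled by library size, and fold changes without a group are APP/PS1/FTnKO over WT on the log2 scale. Library totals were 15925432 to 21030935, and intervals cover counting error only.

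Genes were named by rule: the 10 higher and 10 lower called genes of smallest p that kept their sign in every leave-out; of the genes called against both WT and APP/PS1, the 15 with the smallest larger p (with the first set, 32 genes; with the genes that check the labels, 36); and in each list the called members, at most 6, or the 2 of smallest p where fewer than 2 were called. Other list members in the text were chosen after their values were seen. Members, lists and rules were chosen with earlier results of these data known. Single genes were compared with a two-sided exact permutation test over 462 regroupings, without adjustment for sex. The fit was tested on simulated counts with 200 changed genes: the share found was 75% for edgeR, 80% for DESeq2 1.42.0 and 74.5% for limma 3.58.1 (voom), and false calls made up 5.66%, 13.51% and 3.871% of all calls. These tools, other normalizations, filters, covariates and sample sets were the alternatives. Mice are separate animals. Some items are not reported here.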

Additional observations from a re-analysis of the deposited data

Results flagged for a closer look

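Among 72 groups (36 named genes, each in the 5 WT and the 6 APP/PS1/FTnKO mice), 5 (6.9%) had a mouse far from the rest by Dixon's 95% criterion, where chance gives about 1 in 20. Cst7 was at 0.1775 CPM in WT mouse 18944 and 0 to 0.04998 CPM in the other WT mice. Hmga1 was at 29.49 CPM in APP/PS1/FTnKO mouse 18973 and 19.98 to 23.27 CPM in the others. Kif5b was at 533.2 CPM in APP/PS1/FTnKO mouse 16974, which has the lowest RIN, and 389.7 to 435.5 CPM in the others. Tnnt2 was at 7.596 CPM in WT mouse 19718 and 5.5 to 6.047 CPM in the others. A930015D03Rik was at 1.426 CPM in APP/PS1/FTnKO mouse 18973 and 3.141 to 3.871 CPM in the others. In all 5 genes the 2 genotypes stayed apart with that mouse included. Outside the comparisons, the cerebellar markers summed to 2135 CPM in WT mouse 19622, which was left out.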

How the results depend on the processing

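The number of genes called between APP/PS1/FTnKO and WT mice (674, of which 386 higher and 288 lower) moved by over 1.5 times in some settings. With all 18 mice it was 261 (211 and 50, so that 80.8% were higher against 57.3%), with DESeq2 on 17 mice 1321 (668 and 653) and on the 11 mice compared 1638 (753 and 885), with RIN as a covariate 388 (222 and 166), in females 236 (158 and 78) and in males 3 (3 and 0). Without a filter on low counts 441 genes were lower, and 8 genes passed the interaction of sex and genotype. The number called against both WT and APP/PS1 (37) was 2 with all 18 mice, 148 with DESeq2, 57 without a filter, 95 with RIN, 7 in females and 0 in males; with only the 11 mice it has no value. With 1 mouse left out, the ranges were 206 to 987 genes in all, 138 to 598 higher, 68 to 459 lower, 8 to 57 against both, 0 to 0 for the interaction, and -12.42 to -7.857 CPM for Fntb. Over the alternatives, 1042 values of the 36 named genes stayed on their side of the threshold, 60 were weaker (30 in males only, 15 with all 18 mice), 9 stronger and 0 reversed. Males alone, with 3 mice per genotype, gave 0 calls in every list. No paired analysis was possible because the replicate numbers are mouse numbers that no 2 groups share. Depth limits genes near 0 reads in WT, such as Cst7, Ccl3 and Ccl4, whose ratios have wide intervals.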
